A study of Mus musculus with 12 samples.

Results

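The genes encoding the protein parts of the mouse mitochondrial ribosome were followed across 4 genotypes of haematopoietic stem and progenitor cells. They were taken by name, as every gene whose symbol starts with Mrpl or Mrps followed by a digit. The 4 symbols marked as pseudogenes by "-ps" were left out. This gave 76 genes of the 37187 in the expression table, and 75 of them had enough signal to be tested. By their known places, 49 belong to the large subunit and 26 to the small subunit. The other one, Mrps36, carries a ribosomal name but is now known as a part of the 2-oxoglutarate dehydrogenase complex. Among the ribosomal members 48 have relatives in the bacterial ribosome and 27 are specific to mitochondria.

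Mitochondrial ribosomes translate the few messages of the mitochondrial genome, which encode core subunits of the respiratory chain and the ATP synthase. Their RNA is made inside the organelle, whereas every one of their proteins is encoded in the nucleus, translated on cytosolic ribosomes and imported. In blood stem and progenitor cells this machinery is studied because respiration increases as the cells leave quiescence and differentiate.

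Bone marrow cells had been sorted as negative for lineage markers and positive for Sca-1 and c-Kit (LSK), a gate that holds stem cells and multipotent progenitors. The groups were Tet2;Traf6 double knockout (dKO), Tet2 KO, Traf6 KO and WT, with 3 libraries each. Tet2 encodes an enzyme that oxidises methylated cytosine and Traf6 a ubiquitin ligase of innate immune signalling. The series title places the study in acute myeloid leukaemia, with TRAF6 as a suppressor that acts on MYC. The sources used here do not give strain, age, treatment, allele or Cre driver. Nothing in the labels ties the libraries to separate animals, and the p-values rest on the spread within groups, pooled over all 12 libraries, part of which may be technical. Libraries were made from oligo-dT primed full-length cDNA with a low-input kit that does not mark strand, and the authors deposited a normalised signal, which is whole reads divided by 1 size factor per library.

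The libraries held 22169673 to 53921402 reads, and all the values were whole multiples of a single read (tolerance 1e-06). Tet2 stood at 326, 197 and 261 in dKO, 668, 403 and 486 in Tet2 KO, 722, 339 and 427 in Traf6 KO and 525, 783 and 739.6 in WT. Traf6 stood at 799, 1313 and 967 in the dKO libraries, 3127, 1432 and 1776 in Tet2 KO, 2474, 854 and 568 in Traf6 KO and 1935, 3006 and 2957 in WT. The library labelled Tet2 KO replicate 1 thus had Tet2 within the WT range, and the library labelled Traf6 KO replicate 1 had Traf6 within it. The deleted exons are not given, so RNA from outside them would not show a deletion. Xist was at 990.3 or more in all 6 single-knockout libraries and at 17 or less in the dKO and WT libraries. The Y-linked Ddx3y was at 817 or more in the dKO and WT libraries and at 51.7 or less in the single knockouts, apart from the library labelled Traf6 KO replicate 1, which had 2815 beside its Xist. In comparisons of dKO with a single knockout, of a single knockout with WT, and in the interaction described further on, which sets dKO and WT against both single knockouts, that split and the genotype cannot be told apart. Of 8 LSK markers, 4 fell in dKO against WT, Kit by 2.99 on the log2 scale, with Gata2, Mecom and Hlf. The other 4, Ly6a, Cd34, Flt3 and Procr, did not pass. Ly6a, which encodes Sca-1, had 1968, 2446 and 13218 in dKO, against 2339, 2205 and 1990 in WT. Cd34 had 59383, 56439 and 40877 in dKO, against 39744, 37782 and 52709 in WT. Procr had 963, 1723 and 4613 in dKO, against 1736, 1346 and 1089 in WT. The summed signal of all 8 was 82284 to 102806 in dKO, 111470 to 146155 in Tet2 KO, 110520 to 138524 in Traf6 KO and 123504 to 141984 in WT. The 16 markers of other blood and stromal cells gave 4 calls in that comparison, and Cd3e was at 0 in every library. Summed signal of the 3 B cell markers was 28.2 to 695 in dKO and 5.68 to 29.8 in WT, that of 3 granulocyte and macrophage markers was 1105 to 2656 in dKO and 1100.2 to 1689.9 in WT, and that of 3 stromal markers was 1205 to 3439 in dKO and 3606 to 4437 in WT. Single genes carried the high values of these sums. Pecam1, an endothelial gene also known in blood cells, made up nearly all of the stromal sum, while Col1a1 and Cxcl12 were at 50.4 or less in every library. In dKO replicate 3 Cd79a gave 617 of the B cell sum of 695, and S100a9 gave 2280 of the granulocyte and macrophage sum of 2656. Itgam, of that same class, had 890, 397 and 372 in dKO, against 922, 881 and 1338 in WT. The part of these differences in the results below was not tested, and in bulk RNA fewer cells of a type and less RNA per cell cannot be told apart.

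The members are nuclear genes whose promoters are known for sites of the ETS family factor GABP, of NRF1 and of YY1, so their promoter letters are shown beside their behaviour. RefSeq promoter windows of build GRCm38.p6, which run over 300 bases with the start site at base 251, were found for 67 members (73 windows). In these windows, searched on both strands, the ETS core CCGGAAG occurred in 32.9%, against 34.2% of the windows of cytosolic ribosomal protein genes and 8.86% of all 32851 windows. The NRF1 motif (GCGCA, any base, then GCGC) occurred in 16.4% of the members' windows, 7.89% of the cytosolic ones and 4.60% of all. The YY1 core AANATGGCG occurred in 13.7%, 13.2% and 2.38% of the same sets of windows. The E-box CACGTG, the core recognised by MYC and its partner MAX, occurred in 9.59% of the members' windows, 10.5% of the cytosolic ones and 7.15% of all. Counted by gene, since Mrpl2 alone has 3 overlapping windows with it, the E-box occurred in 5 of 67 members (7.46%) and in 8.09% of all genes. By gene the ETS core occurred in 35.8% of members and 9.93% of all genes, the NRF1 motif in 17.9% and 5.19%, and the YY1 core in 14.9% and 2.76%. At least 1 of the 4 motifs lay in 60.3% of the members' windows and in 19.8% of all windows. Members with the ETS core had a median log2 change in dKO against WT of 1.68 (n = 23) and those without it 1.50 (n = 43), with 1.66 (n = 10) and 1.60 (n = 56) for the YY1 core, 1.55 (n = 12) and 1.64 (n = 54) for NRF1, and 1.89 (n = 5) and 1.60 (n = 61) for the E-box. A match of letters is a description and not a binding site.

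Windows of 4 members named below are printed with these motifs in capitals. Mrpl27 (chr11:94653541-94653840, plus strand) holds the ETS core 55 bases before the start site and the YY1 core at base 9 after it. Mrpl12 (chr11:120484387-120484686, plus strand) holds the NRF1 motif, read on the other strand, 81 bases before the start. Mrpl3 (chr9:105053018-105053317, plus strand) holds the ETS core 19 bases before the start. Mrps30 (chr13:118387203-118387502, minus strand) holds the YY1 core at base 16 after it.
Mrpl27: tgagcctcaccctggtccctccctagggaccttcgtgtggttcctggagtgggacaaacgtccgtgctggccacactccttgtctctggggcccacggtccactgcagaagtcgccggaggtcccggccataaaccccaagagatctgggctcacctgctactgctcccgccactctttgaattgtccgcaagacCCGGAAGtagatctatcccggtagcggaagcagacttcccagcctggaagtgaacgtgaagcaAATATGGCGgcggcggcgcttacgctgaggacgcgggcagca
Mrpl12: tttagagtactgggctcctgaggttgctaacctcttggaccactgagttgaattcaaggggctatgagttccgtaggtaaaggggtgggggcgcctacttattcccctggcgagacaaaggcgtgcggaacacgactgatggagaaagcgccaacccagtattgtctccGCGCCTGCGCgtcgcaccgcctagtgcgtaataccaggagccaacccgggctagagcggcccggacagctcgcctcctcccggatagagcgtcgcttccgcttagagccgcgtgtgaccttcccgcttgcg
Mrpl3: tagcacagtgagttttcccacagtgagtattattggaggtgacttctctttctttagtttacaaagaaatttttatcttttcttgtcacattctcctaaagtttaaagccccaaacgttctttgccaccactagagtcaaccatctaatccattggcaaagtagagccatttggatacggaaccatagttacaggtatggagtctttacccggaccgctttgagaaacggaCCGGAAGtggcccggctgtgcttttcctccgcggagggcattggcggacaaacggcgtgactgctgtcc
Mrps30: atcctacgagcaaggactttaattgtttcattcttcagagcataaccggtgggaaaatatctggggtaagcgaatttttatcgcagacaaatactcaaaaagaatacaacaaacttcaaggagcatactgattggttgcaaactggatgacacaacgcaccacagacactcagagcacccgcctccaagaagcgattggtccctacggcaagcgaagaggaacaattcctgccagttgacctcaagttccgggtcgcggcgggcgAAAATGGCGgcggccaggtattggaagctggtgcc

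The members stood higher in the dKO cells than in WT almost throughout. Of 75 tested, 67 rose, none fell and 8 did not pass the test (limma on log2(value + 1), adjusted p under 0.05 over all 14045 genes tested). Over all genes 21.9% rose and 26.5% fell in this comparison. The median log2 change of the members was 1.60, with quartiles of 1.28 and 1.86 and a range of 0.26 to 2.17, while the median of all genes was -0.09. In 72 members the 3 dKO values lay above the 3 WT values, which held for 27.9% of all genes. Both subunits moved alike in number and size: 43 of 48 large-subunit members rose, with a median change of 1.61, and 23 of 26 small-subunit members, with a median of 1.58. Members shared with bacteria gave 43 of 48 and a median of 1.66, and mitochondrion-specific members 23 of 26 and a median of 1.37. Without dKO replicate 3, which stood apart from the other dKO libraries, 62 members rose and the median was 1.04. The share of all genes that rose in that fit is not given here. Many members have short transcripts, and fewer members passed when a trend on transcript length was removed, as set out further on.

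**Figure D1:**
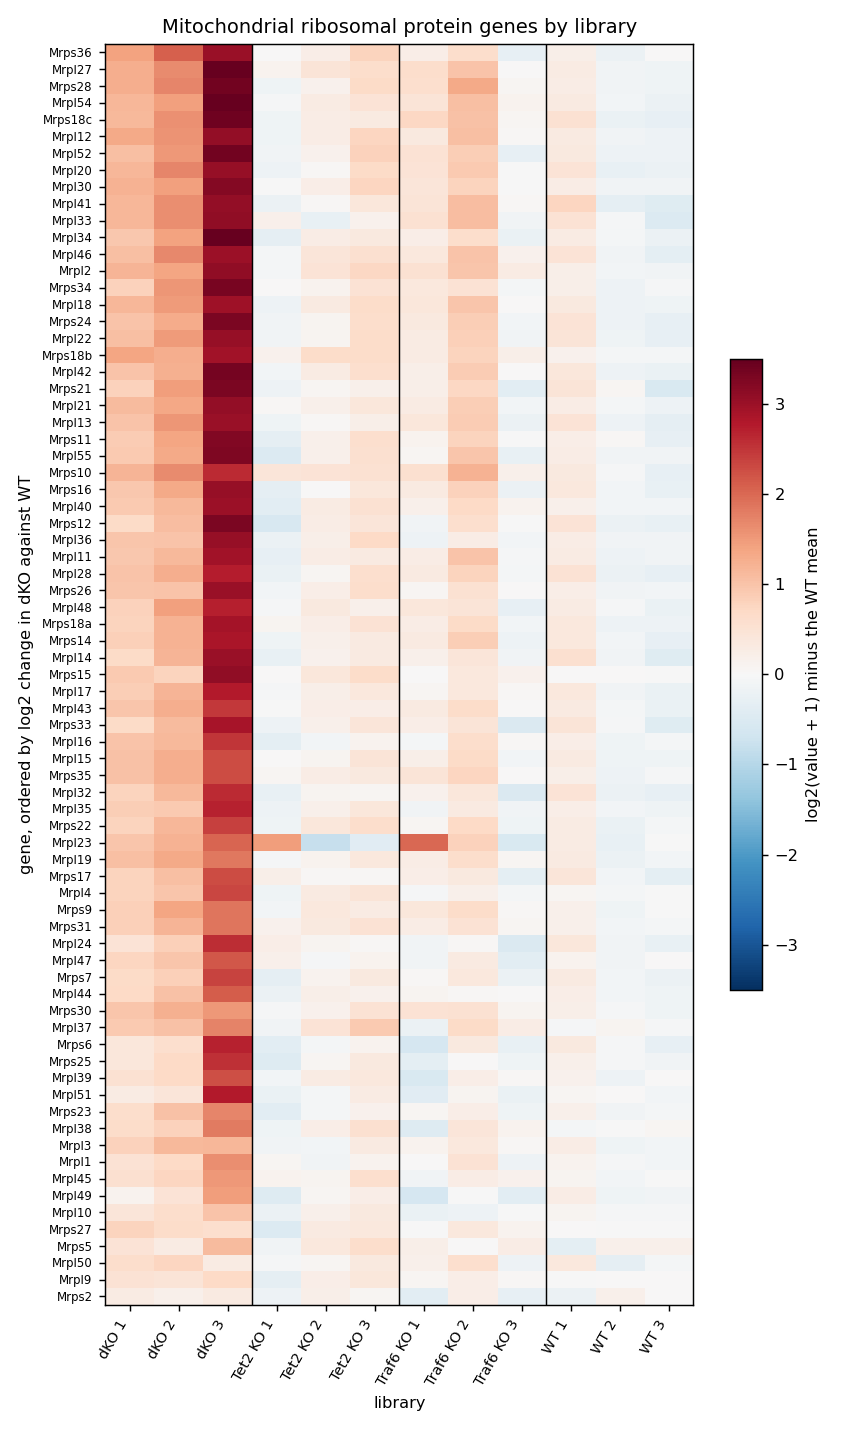
Level of each of the 75 tested genes (rows) in each of the 12 libraries (columns), as log2(value + 1) minus the mean of the 3 WT libraries. Rows run from the largest log2 change in dKO against WT, Mrps36 with 2.17, to the smallest, Mrps2 with 0.26, and dKO replicate 3 is the reddest column.

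Among large-subunit members the largest rises were those of Mrpl27, Mrpl54, Mrpl12, Mrpl52 and Mrpl20. Mrpl27 (chromosome 11, 94653767 to 94660089), with an ETS and a YY1 core in its printed window, whose bacterial relative reaches the peptidyl transferase centre, had 1108, 1427 and 5269 in the dKO libraries, 501, 629 and 694 in Tet2 KO, 698, 915 and 462 in Traf6 KO and 555, 415 and 412 in WT. Its log2 change in dKO against WT was 2.15 ± 0.48 (SE, n = 3 each; limma, adjusted p = 0.00355). All dKO values lay above those of every other library, with dKO replicate 3 far above the other 2. Exons of Eme1 overlap Mrpl27 on the opposite strand, and reads of the 2 genes could not be told apart.

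Mrpl12 (chromosome 11, 120484613 to 120489065) is the stalk protein that recruits translation factors, and its printed window holds the NRF1 motif alone of the 4. It had 5856, 6958 and 19727 in the dKO libraries, 2088, 2810.3 and 3905 in Tet2 KO, 2935, 4834 and 2424 in Traf6 KO and 2891, 2134 and 2067 in WT. The change in dKO against WT was 1.99 ± 0.42 (SE, n = 3 each; limma, adjusted p = 0.00263). No dKO value overlapped another group, and the gap between dKO replicate 3 and the other dKO libraries exceeded that between those and WT. Mrpl54, a mitochondrion-specific protein, had 1556, 1878 and 8210.4 in dKO, against 853, 641 and 603 in WT, a change of 2.06 ± 0.50 (SE, n = 3 each; limma, adjusted p = 0.00547). Mrpl52, also mitochondrion-specific and with the shortest transcript of the members, had 969, 1343 and 4811 in dKO, against 593, 409 and 413 in WT, a change of 1.99 ± 0.51 (SE, n = 3 each; limma, adjusted p = 0.00731). Mrpl20, which helps fold the large-subunit RNA in bacteria, had 2387, 3475 and 8900.2 in dKO, against 1484, 888 and 925 in WT, a change of 1.97 ± 0.43 (SE, n = 3 each; limma, adjusted p = 0.00344). In each of these 3 genes the dKO and WT libraries were apart.

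Other large-subunit members rose by less but with a smaller spread. Mrpl19 (chromosome 6, 81957851 to 81965958), at the interface of the subunits, had 4212, 5143 and 7376 in the dKO libraries, 2004, 2235 and 2656 in Tet2 KO, 2428, 3134 and 2152 in Traf6 KO and 2547, 1772 and 1898 in WT. Its change of 1.41 ± 0.26 (SE, n = 3 each; limma, adjusted p = 0.00137) had the smallest adjusted p of the members in dKO against WT. The dKO values were all above the others, and dKO replicate 3 was less far from its group than in the genes above. Mrpl3 (chromosome 9, 105053239 to 105079888), whose bacterial relative reaches toward the peptidyl transferase centre, had 5493, 6845 and 6992 in the dKO libraries, 2857, 2953 and 3870.5 in Tet2 KO, 3416, 4075 and 3244 in Traf6 KO and 3768, 2802 and 2932 in WT. The change was 1.03 ± 0.22 (SE, n = 3 each; limma, adjusted p = 0.00271). Here dKO replicates 2 and 3 were level. Mrps30 (chromosome 13, 118378381 to 118387252), a protein of the large subunit in spite of its name, had 5203, 6347 and 7649 in the dKO libraries, 2607, 2951 and 3752 in Tet2 KO, 3794, 3880.4 and 2859 in Traf6 KO and 3052, 2601 and 2378 in WT. The change was 1.25 ± 0.23 (SE, n = 3 each; limma, adjusted p = 0.0014). The WT, Tet2 KO and Traf6 KO values overlapped each other and lay below dKO. Exons on the opposite strand overlap Mrpl12, Mrpl19, Mrpl3 and Mrps30, as they do 27 of the members in all, and 32 overlap an exon of some other gene.

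In the small subunit Mrps28 and Mrps18c led. Mrps28 (chromosome 3, 8802146 to 8923918) had 1967, 2675 and 8452 in the dKO libraries, 738, 916 and 1316 in Tet2 KO, 1224, 2041 and 860.0 in Traf6 KO and 989, 759 and 735 in WT. It changed by 2.11 ± 0.47 (SE, n = 3 each; limma, adjusted p = 0.00372) in dKO against WT. The dKO and WT libraries were apart, whereas Traf6 KO replicate 2 lay just above the lowest dKO library. Mrps18c, 1 of several mammalian relatives of a single bacterial protein, had 1328, 1827 and 6380.3 in dKO, against 863, 512 and 491 in WT, a change of 2.05 ± 0.48 (SE, n = 3 each; limma, adjusted p = 0.0049). Mrps35, which is mitochondrion-specific, had 2659, 3112 and 6289 in dKO, against 1509, 1156 and 1255 in WT and changed by 1.52 ± 0.31 (SE, n = 3 each; limma, adjusted p = 0.00242). Neither gene had a dKO value inside the WT range.

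Mrps36 (chromosome 13, 100735955 to 100744659), the member outside the ribosome, had the largest change of all. Its signal was 64.8, 106 and 202 in the dKO libraries, 24.3, 28.1 and 41.4 in Tet2 KO, 28.2, 37.1 and 19.5 in Traf6 KO and 27.7, 20.6 and 24 in WT, and its change in dKO against WT was 2.17 ± 0.56 (SE, n = 3 each; limma, adjusted p = 0.00705). These are few reads, and 2 pseudogenes, Mrps36-ps1 and Mrps36-ps2, are counted apart from it in the table with at most 3.57 units, so that a split of reads between them leaves its level uncertain. For Mrpl23, whose pseudogene Mrpl23-ps1 had up to 87.6 units, the level is uncertain in the same way, whereas Mrpl48-ps had at most 28.6 units against 748 or more for Mrpl48.

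The 8 members that did not pass in dKO against WT were singled out after their values were seen. They were Mrpl9, Mrpl23, Mrpl49, Mrpl50 and Mrpl51 of the large subunit and Mrps2, Mrps5 and Mrps6 of the small subunit. Mrps2, a small-subunit protein shared with bacteria, had 3144, 2869 and 3158 in the dKO libraries, 2271, 2965 and 2697 in Tet2 KO, 1988, 3021 and 2095 in Traf6 KO and 2239, 2872 and 2599.7 in WT. Its change was 0.26 ± 0.22 (SE, n = 3 each; limma, adjusted p = 0.361), the smallest of the members, and its groups overlapped. Mrpl50 had 4296, 4719 and 3414 in dKO, against 3627, 2269 and 2654 in WT, a change of 0.55 ± 0.26 (SE, n = 3 each; limma, adjusted p = 0.0879). Here dKO replicate 3 was the lowest dKO library and fell inside the WT range. Mrpl9 had 2011, 1954 and 2295 in dKO, against 1408, 1420.1 and 1427 in WT, a change of 0.55 ± 0.23 (SE, n = 3 each; limma, adjusted p = 0.0612). Mrpl51 (1.16 ± 0.50, adjusted p = 0.0696 by limma) and Mrps6 (1.22 ± 0.50, adjusted p = 0.0563 by limma) had changes above 1 with a wide spread, and their dKO replicate 3 exceeded the sum of the other 2 dKO libraries. Mrps5 (0.63 ± 0.28, adjusted p = 0.0775 by limma) and Mrpl49 (0.69 ± 0.33, adjusted p = 0.0949 by limma) lay nearer 0.

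**Figure D2:**
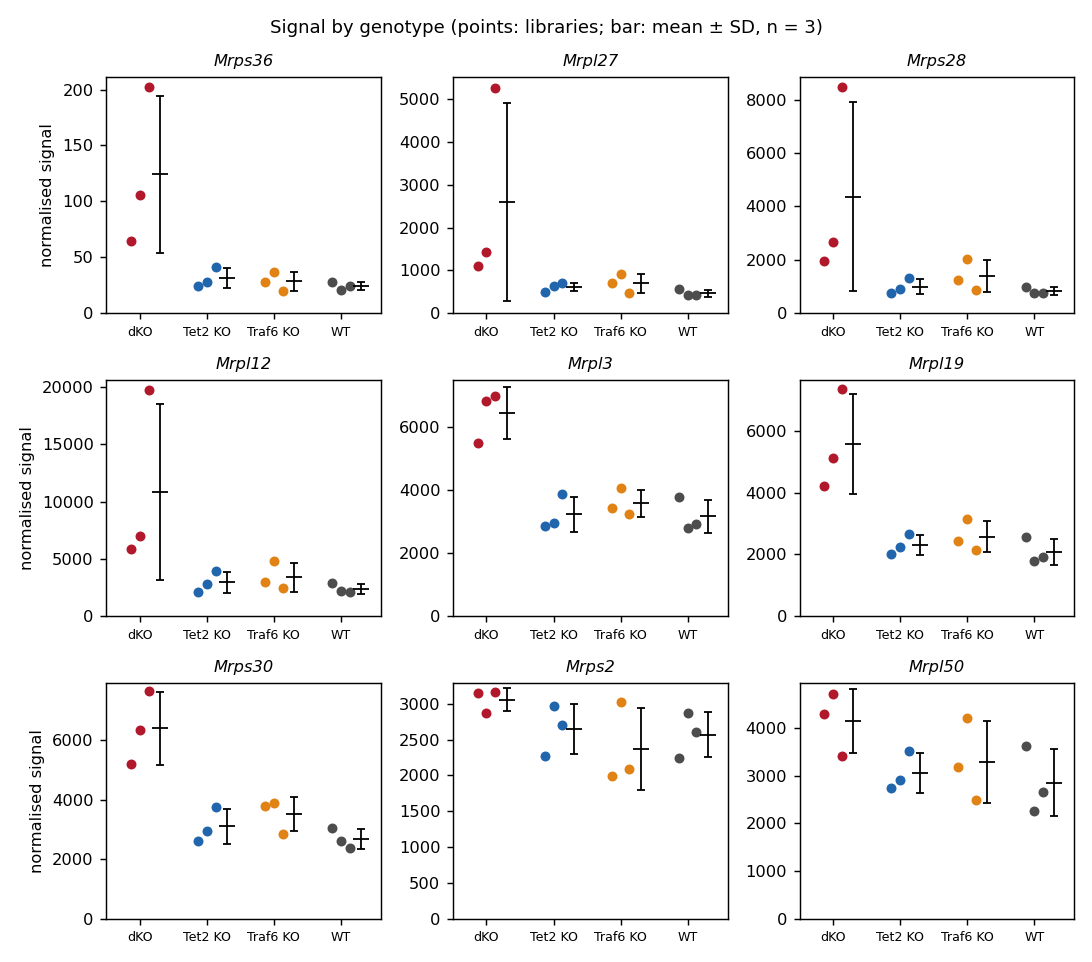
Normalised signal of 9 members in each library (points) with the group mean ± SD (bars, n = 3) for dKO, Tet2 KO, Traf6 KO and WT. In the first 7 panels all dKO points lie above all WT points, most widely spread in Mrps36, Mrpl27, Mrps28 and Mrpl12, whereas in Mrps2 and Mrpl50 the groups overlap.

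Levels of the members differed widely between genes. Per kilobase of the principal transcript, Mrpl33 had a mean signal of 5203 over all libraries, Mrpl28 4509 and Mrpl42 3928, the highest of the members. At the low end of those tested stood Mrpl23 with 53.1, Mrps36 with 74.1 and Mrps25 with 210 per kilobase. Mrpl33 and Mrpl28 are relatives of bacterial large-subunit proteins, and the Mrpl23 protein sits at the exit of the peptide tunnel. Mrpl33 had 2698, 3752 and 10407 in dKO, against 1741, 1177 and 876 in WT, a change of 1.96 ± 0.45 (SE, n = 3 each; limma, adjusted p = 0.00433). Mrpl28 changed by 1.67 ± 0.41 (SE, n = 3 each; limma, adjusted p = 0.00606) and Mrpl42 by 1.86 ± 0.50 (SE, n = 3 each; limma, adjusted p = 0.00888). The members with the highest levels per kilobase thus rose as most others did. Mrps25 had 1140.2, 1407 and 5169 in dKO, against 978, 849 and 795 in WT, a change of 1.22 ± 0.45 (SE, n = 3 each; limma, adjusted p = 0.0386), with dKO replicates 1 and 2 not far above WT. Mrpl23 had 39.4, 47 and 84 in the dKO libraries, 55.9, 10.6 and 14.5 in Tet2 KO, 81.9, 34.8 and 13.3 in Traf6 KO and 24.1, 16 and 19.2 in WT. The library labelled Traf6 KO replicate 1 was nearly as high in Mrpl23 as dKO replicate 3, and the change of Mrpl23, 1.42 ± 0.76 in dKO against WT, did not pass (limma, adjusted p = 0.138). Mrpl53 alone fell below the filter on low values, with 0.938, 1.30 and 5.36 in dKO, 3.16, 0 and 2.07 in Tet2 KO, 0.910, 1.16 and 0 in Traf6 KO and 1.42, 3.43 and 0 in WT, and no fold is given for it.

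Against the single knockouts the dKO cells were also higher. Of the 75 members 60 rose and none fell in dKO against Tet2 KO, where 15.5% of all genes rose and 19.9% fell, and the median change was 1.42. In dKO against Traf6 KO 69 rose and none fell, where 17.3% of all genes rose and 20.7% fell, and the median was 1.38. The 3 comparisons share the dKO libraries, and 60 members passed in all of them. The share of all genes that passed in all 3 is not given here, so this joint count is not read as a result about the members. The smallest p-values against Tet2 KO were those of Mrpl19 (1.25 ± 0.26), Mrpl16 (1.65 ± 0.35), Mrpl3 (1.0 ± 0.22), Mrps30 (1.04 ± 0.23) and Mrps23 (1.21 ± 0.28). Mrpl16, whose bacterial relative helps to position transfer RNA, had 3261, 3604 and 9251 in dKO, against 1287, 1532 and 1778 in Tet2 KO (limma, adjusted p = 0.00872). Mrps23, a mitochondrion-specific small-subunit protein, had 2542, 3426 and 5471 in dKO, against 1293, 1600.2 and 1849 in Tet2 KO (limma, adjusted p = 0.0105). Every dKO value was above every Tet2 KO value in both genes.

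Against Traf6 KO the smallest p-values were those of Mrpl19 (1.09 ± 0.26), Mrpl47 (1.35 ± 0.34), Mrpl15 (1.26 ± 0.32), Mrpl3 (0.85 ± 0.22) and Mrpl44 (1.23 ± 0.31). Mrpl47, near the tunnel exit, had 1275, 1471 and 3405 in dKO, against 701, 949 and 581 in Traf6 KO (limma, adjusted p = 0.0125). Mrpl15 had 4811, 5777 and 11613 in dKO, against 2761, 3803 and 2249 in Traf6 KO (limma, adjusted p = 0.0126). Mrpl44, which has the fold of a ribonuclease III enzyme, had 2988, 3758 and 8057 in dKO, against 1978, 1914 and 1866 in Traf6 KO (limma, adjusted p = 0.013). The groups were apart in these 3 genes as well. Both counts leaned on single libraries: leaving out the library labelled Tet2 KO replicate 1 left 4 members past the threshold against Tet2 KO, and against Traf6 KO 4 passed without Traf6 KO replicate 3, 12 without the library labelled Traf6 KO replicate 1 and 28 without dKO replicate 3. With only the 2 compared groups in the fit, 0 members passed in either comparison. Shares of all genes in these reduced fits are not given here.

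No member passed in either single knockout against WT. In Tet2 KO against WT 0 of 75 passed by limma, edgeR or DESeq2, 0 had an unadjusted limma p under 0.05, while 0.107% of all genes rose and 0.306% fell. The median log2 change was 0.16, with a range of -0.11 to 0.49, and 2 members had all Tet2 KO values above WT, which held for 8.07% of all genes. In Traf6 KO against WT 0 of 75 passed by any of the 3 tools, 0 had an unadjusted limma p under 0.05, while 0.0783% of all genes rose and 0.192% fell. Here the median was 0.24, with a range of -0.32 to 0.77, and 3 members had all Traf6 KO values above WT, which held for 9.68% of all genes. The effect of losing Traf6 on Tet2 KO minus its effect on WT, the interaction, had a median of 1.19 and was positive in all 75 members. It follows the Xist and Ddx3y split exactly but for the library labelled Traf6 KO replicate 1, and genotype and split cannot be told apart in it. The interaction passed in 0 of the 75 members by limma, edgeR or DESeq2, with a smallest limma adjusted p of 0.227. Over all genes 0.107% passed as higher and 0.114% as lower by limma. At the looser threshold of an unadjusted limma p under 0.05 there were 26 members, and without dKO replicate 1, 23 members passed. For these 2 counts the share of all genes is not given here, so they are not read as results about the members.

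The 3 dKO libraries differed in how far the members stood above WT. Relative to the WT mean, the median over the members was 0.91, 1.22 and 2.76 on the log2 scale in dKO replicates 1, 2 and 3. It was -0.14, 0.18 and 0.41 in Tet2 KO, 0.21, 0.61 and -0.03 in Traf6 KO, and 0.28, -0.11 and -0.14 in WT. All 3 dKO values exceeded all WT values in 27.9% of all genes tested, and the share of all genes in each single library is not given here. In each dKO library 74 of 75 members exceeded all WT libraries as deposited. The direction in the deposited values thus did not rest on dKO replicate 3 alone, whereas the size did. Other genes with short transcripts also stood above the WT mean, with medians of 0.68, 1.06 and 2.40 in the dKO libraries. With the principal length trend removed, the members' medians were 0.24, 0.09 and 0.66 in dKO and 0.08, -0.05 and -0.04 in WT. Replicate 2 of dKO was then just above WT replicate 1. Whether the direction in each dKO library is independent of transcript length was not tested. Among all libraries dKO replicate 3 had the highest normalised total, 3.997e+07 against 2.556e+07 to 2.892e+07 in the others. It also had the highest share in its 10 most abundant genes, 5.74% against 2.55% to 3.67%. Summed signal of the members was 0.606%, 0.728% and 1.35% of all signal in dKO, 0.347%, 0.401% and 0.462% in Tet2 KO, 0.387%, 0.515% and 0.327% in Traf6 KO and 0.441%, 0.332% and 0.316% in WT. Small-subunit signal was 41.2%, 40.4% and 41.6% of large-subunit signal in dKO, 43.2%, 45.8% and 42.2% in Tet2 KO, 44.0%, 42.9% and 43.1% in Traf6 KO and 41.7%, 45.9% and 44.5% in WT. All 3 dKO ratios lay below those of the other libraries, the highest of them just below WT replicate 1, and the difference was not put to a test.

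**Figure D3:**
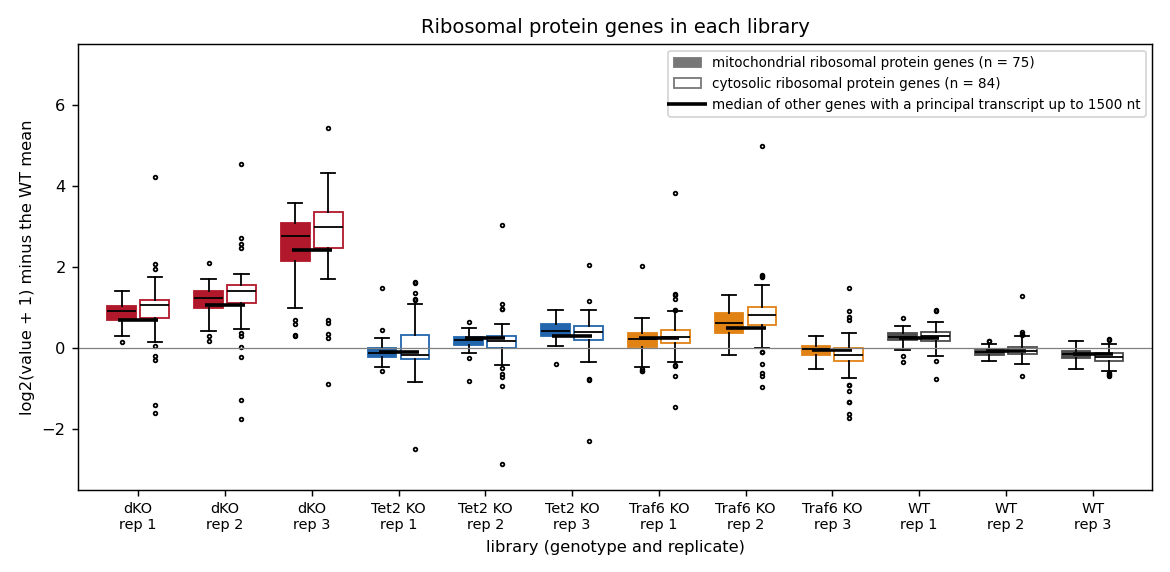
For each library, the distribution of log2(value + 1) minus the WT mean over the 75 mitochondrial (filled boxes) and 84 cytosolic (open boxes) ribosomal protein genes, with boxes from quartile to quartile, a line at the median, whiskers to 1.5 times the box and points beyond. Black bars are medians of other genes with a principal transcript of up to 1500 nucleotides, and in dKO replicates 1, 2 and 3 they stand at 0.68, 1.06 and 2.40, below both sets of boxes' medians.

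The cytosolic ribosomal protein genes, whose products make the ribosomes that translate nuclear messages, moved with the mitochondrial set. In dKO against WT 66 of 84 tested rose and 1 fell, with a median change of 1.82. In dKO against Tet2 KO 60 rose and 1 fell, with a median of 1.67, and in dKO against Traf6 KO 62 rose and 0 fell, with a median of 1.55. In Tet2 KO against WT 0 rose and 1 fell, with a median of 0.15, and in Traf6 KO against WT 0 rose and 0 fell, with a median of 0.29. Medians by library, relative to the WT mean, were 1.05, 1.41 and 2.98 in dKO. The largest rises past the threshold were Rpl3l (76, 95.2 and 179 in dKO, against 1.42, 9.14 and 1.92 in WT), Rps18 (2204, 3386 and 11452 in dKO, against 788, 500.4 and 482 in WT) and Rps28 (151, 344 and 904 in dKO, against 61.7, 43.4 and 52.9 in WT). Every WT value of Rpl3l came from few reads and lay below the filter on low values. The size of the Rpl3l rise is therefore uncertain. Rpl24, the one that fell, had 751, 676 and 1229.6 in dKO, against 2180.5, 2496 and 2239 in WT, a change of -1.43 ± 0.29 (SE, n = 3 each; limma, adjusted p = 0.00245). Cytosolic genes thus held single members that rose or fell farther than any mitochondrial member. The summed signal of the mitochondrial set was 61.6%, 59.1% and 56.7% of the cytosolic sum in dKO, 71.9%, 65.9% and 67.0% in Tet2 KO, 65.0%, 63.0% and 68.6% in Traf6 KO and 70.0%, 66.7% and 69.0% in WT. The dKO ratios lay below those of every other library. That difference was not put to a test. Many cytosolic genes have near-identical processed copies, and how their reads were shared is not given. The cytosolic sum was 0.984%, 1.23% and 2.38% of all signal in dKO and 0.629%, 0.499% and 0.458% in WT. Its level, and with it the size of these ratios, is therefore uncertain.

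Transcript length moved with the changes in dKO. The members' principal transcripts have a median of 1288 nucleotides, those of cytosolic ribosomal protein genes 882 and those of all genes tested 2837. Across genes of the dKO against WT comparison, which share their libraries, Spearman's rho between log2 change and this length was -0.67 over the 75 members and -0.66 over 13676 genes. Of 46 members with up to 1500 nucleotides 44 rose, with a median of 1.85. Of 2464 other genes as short, neither members nor cytosolic ribosomal protein genes, 1330 rose (54.0%) and 66 fell, with a median of 1.38. Of the 29 longer members 23 rose, with a median of 1.29, whereas 14.3% of all genes over that length rose and their median was -0.43. The coding parts of the members run from 195 to 1326 nucleotides with a median of 588, against 453 for the cytosolic set and 1371 for all genes. Among 6859 other genes with a coding part of up to 1500 nucleotides 36.4% rose and the median change was 0.53.

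**Figure D4:**
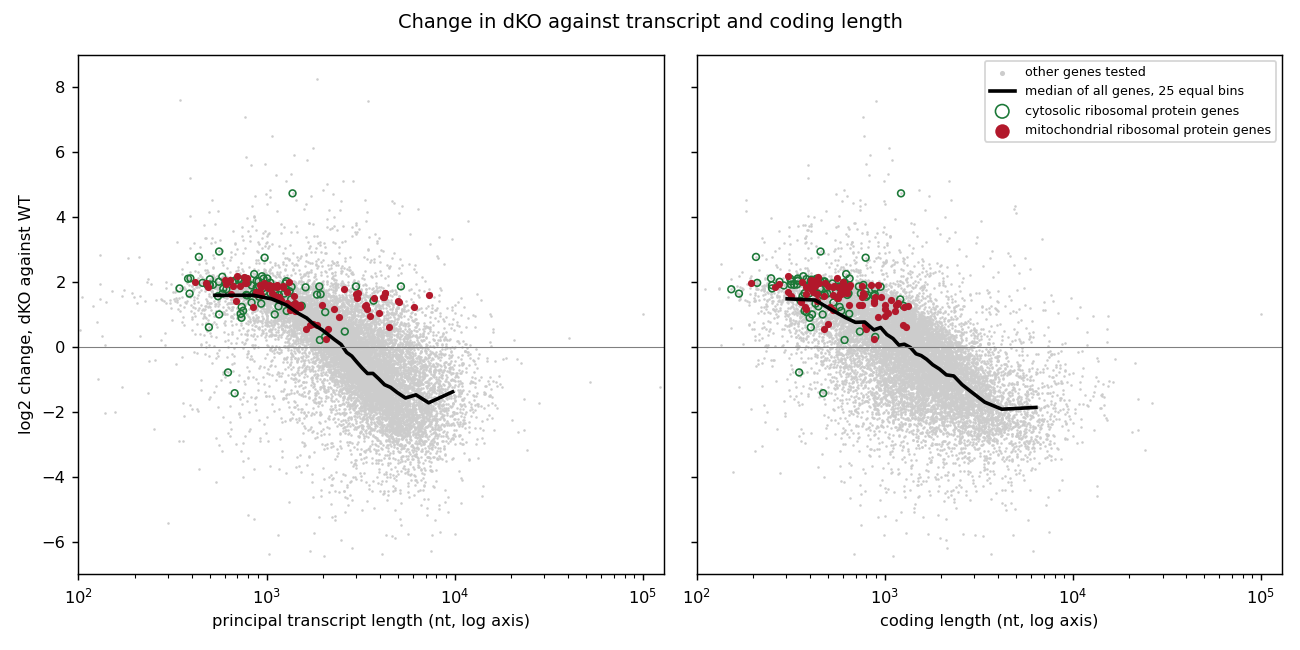
Log2 change in dKO against WT for each gene tested, against the length of its principal transcript (left) and of its coding part (right), both on log axes. Black lines join the medians of 25 bins with equal numbers of genes, and members with principal transcripts over 2500 nucleotides (median change 1.50) lie above the line on the left.

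When each library's trend of log2 values on principal transcript length and GC content was removed, 19 members rose and 0 fell in dKO against WT, where 9.67% of all genes rose and 16.4% fell. The change was positive in 63 of 75 members. The median of the members was 0.31, that of the cytosolic set 0.22 (10 rose, 3 fell) and that of all genes -0.16. Of those 19 members 18 have principal transcripts over 2500 nucleotides, which is nearly all of the 19 of that length, and the other one is Mrpl12. With the coding length in the trend, an alternative chosen after seeing the data, 25 members rose and 1 fell, Mrpl49, where 12.1% of all genes rose and 21.5% fell. The medians were then 0.59 for the members and 0.43 for the cytosolic set (17 rose, 3 fell), and 6 of the 25 have principal transcripts over 2500 nucleotides. The length of the longest annotated transcript, also added later, gave 31 members and a median of 0.49, where 11.5% of all genes rose and 18.3% fell. Which genes passed thus differed with the length used, and 7 rose in all 4 fits: Mrpl3, Mrpl12, Mrpl15, Mrpl19, Mrpl48, Mrps30 and Mrps35. Of these 7, 6 have principal transcripts over 2500 nucleotides. The share of all genes that rose in all 4 fits is not given here. With the principal length trend removed, the changes of these 7 genes ran from 0.74 ± 0.22 in Mrpl12 to 2.41 ± 0.37 in Mrpl19. With the coding length trend removed, they ran from 0.70 ± 0.18 in Mrpl3 to 1.27 ± 0.24 in Mrps30 (limma, adjusted p = 0.00887 for Mrpl3 and 0.00191 for Mrps30). By library, the members' median with the principal length trend removed was 0.24, 0.09 and 0.66 in dKO, -0.13, -0.09 and 0.19 in Tet2 KO, 0.07, 0.24 and -0.04 in Traf6 KO and 0.08, -0.05 and -0.04 in WT. Then dKO replicate 2 stood below Tet2 KO replicate 3 and Traf6 KO replicate 2. Against the single knockouts these fits also left fewer members. In dKO against Tet2 KO 15 rose and 0 fell with the principal length trend removed (4.96% of all genes rose and 6.96% fell), 15 with the coding length trend (6.61% and 12.8%) and 19 with the longest transcript (6.74% and 8.99%). In dKO against Traf6 KO 14 rose and 0 fell with the principal length (5.7% and 10.8%), 7 with the coding length (6.04% and 15.4%) and 17 with the longest transcript (7.39% and 12.9%).

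**Figure D5:**
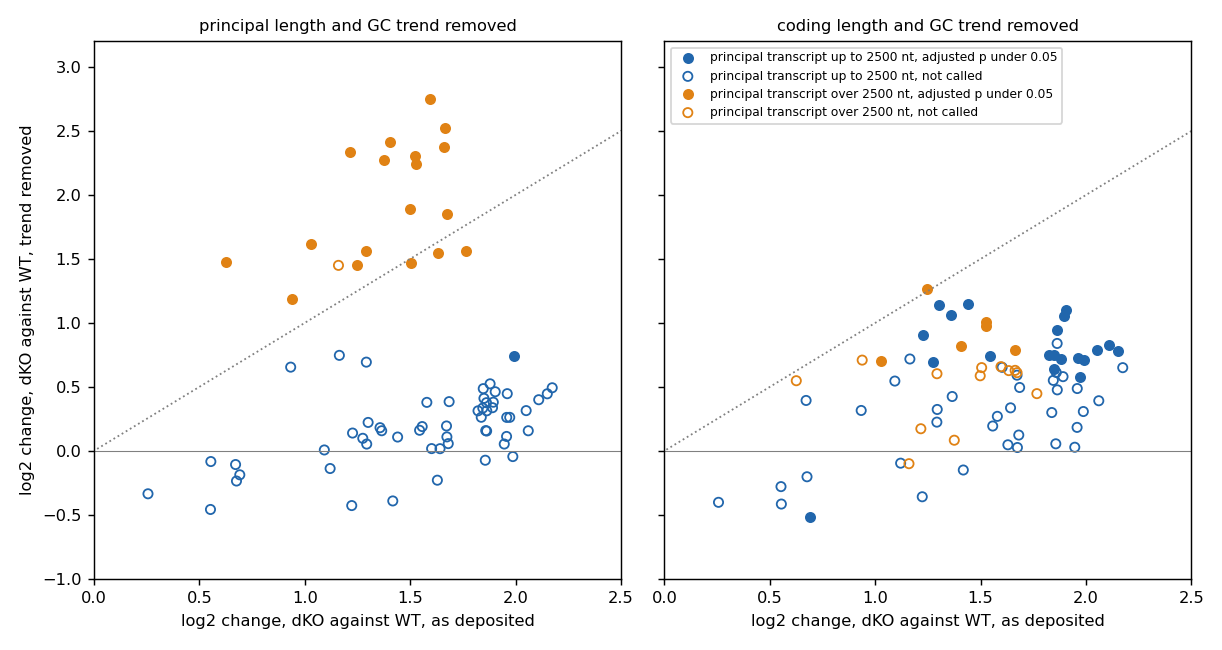
Log2 change in dKO against WT of each of the 75 members as deposited (horizontal axis) and after the trend on length and GC content was removed (vertical axis), with principal transcript length on the left and coding length on the right. Filled points passed the test after removal (19 higher on the left, 25 higher and 1 lower on the right), colours mark transcripts over 2500 nucleotides, and the dotted line marks equal values.

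Mitoribosomal proteins that go under other symbols moved with the members in 6 of 7 cases, with a median change in dKO against WT of 1.63. These were Gadd45gip1 (1.90 ± 0.45), Ict1 (1.75 ± 0.44, a peptide-release protein built into the large subunit), Chchd1 (1.69 ± 0.45), Aurkaip1 (1.63 ± 0.45), Mrp63 (1.43 ± 0.40) and Dap3 (1.05 ± 0.25, the GTP-binding protein of the small subunit). Dap3 had 5331, 6245 and 9559.7 in dKO, against 3640.0, 3035 and 3224 in WT. The exception was Ptcd3, a pentatricopeptide protein of the small subunit, with 6847, 6055 and 2491 in dKO, against 6011, 4242 and 4668 in WT and a change of -0.07 ± 0.32 (SE, n = 3 each; limma, adjusted p = 0.876). In Ptcd3 dKO replicate 3 was below every WT library while the other dKO libraries were above them.

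The rest of the mitochondrial gene expression machinery was mixed, where 21.9% of all genes rose and 26.5% fell. Of 25 assembly factors 11 rose and 1 fell, with a median of 0.81. Rbfa, which matures the small-subunit RNA, had 4879.8, 5830.3 and 11089.5 in dKO, against 2731, 2348 and 2853 in WT (1.37 ± 0.30; limma, adjusted p = 0.00355). Dhx30, an RNA helicase, had 3069, 1182 and 1063 in dKO, against 4141, 4594 and 4800.3 in WT (-1.52 ± 0.33; limma, adjusted p = 0.00325). Mpv17l2 (1.69 ± 0.42) and the methyltransferase gene Rnmtl1 (1.18 ± 0.31) rose. Dhx30 was the only assembly factor that fell past the threshold, and no member fell in the fit as deposited. Of 16 translation factors 8 rose and 1 fell, with a median of 0.70. The gene that fell was Lrpprc, whose product stabilises mitochondrial messages, with 3123, 1233 and 729 in dKO, against 4523, 5399 and 5100.4 in WT (-1.82 ± 0.39; limma, adjusted p = 0.00317). Its partner 1810035L17Rik, known as Slirp, went the other way at 1.74 ± 0.45 (limma, adjusted p = 0.00781), as did the release factor Mtrf1 at 1.20 ± 0.28 and the elongation factor Tsfm at 1.41 ± 0.40.

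Genes that copy and transcribe mitochondrial DNA were split, with 5 higher and 3 lower of 13 and a median of 0.53. Polg, the DNA polymerase, had 709, 351 and 273 in dKO, against 2009, 2445 and 2621 in WT (-2.52 ± 0.38; limma, adjusted p = 0.000515), and Polrmt, the RNA polymerase, changed by -1.46 ± 0.38. Ssbp1, the single-strand binding protein, had 2488, 3116 and 9567 in dKO, against 1447, 1038 and 952 in WT (1.90 ± 0.41; limma, adjusted p = 0.00324), and the elongation factor 1110002N22Rik, known as Tefm, changed by 1.50 ± 0.31. The polymerases have long transcripts, and with the principal length trend removed Polg stood at -0.89 ± 0.25 and Polrmt at -0.36 ± 0.28. Of 8 regulators of mitochondrial biogenesis 1 rose and 3 fell, with a median of -0.45, shares near those of all genes. Gabpa, the ETS-family subunit of GABP, had 2115, 1073 and 920.4 in dKO, against 3337, 4011 and 4189.6 in WT (-1.58 ± 0.29; limma, adjusted p = 0.00146). Pprc1, a coactivator of NRF1, had 1486, 556 and 602 in dKO, against 3349, 4598 and 5164 in WT (-2.44 ± 0.39; limma, adjusted p = 0.000667). The coactivator Ppargc1b changed by -1.27 ± 0.48 and Yy1 by 0.62 ± 0.22, the only riser. Gabpa and Pprc1 also passed as lower with either length trend removed. Myc had 27733, 28914 and 19627 in dKO, against 18778, 19732 and 19670.5 in WT, a change of 0.37 ± 0.24 (SE, n = 3 each; limma, adjusted p = 0.214), which did not pass.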

How the data were processed

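RNA of sorted LSK cells was measured in 12 libraries. Per the submitters' processing notes, bcl2fastq, STAR, featureCounts and DESeq2 were used with builds mm10 and GRCm38. The sources used here do not give the counting annotation or strand setting. The authors deposited a normalised signal per gene, whole reads divided by 1 size factor per library; each read was worth 0.518 to 1.79 units.

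The signal was tested with limma 3.58.1 in R 4.3.3 (trend and robust moderation) on log2(value + 1), for genes of at least 10 in at least 3 libraries, with all 12 libraries as 4 groups. Benjamini-Hochberg adjustment ran over the 14045 genes of a comparison, with a threshold of 0.05. Changes on this scale understate those of low genes. Recovered reads were tested with edgeR 4.0.16 and DESeq2 1.42.0 as alternatives. Length and GC content came from GENCODE principal transcripts, which were also used for levels per kilobase, matched for 13676 tested genes (97.4%). A loess trend (span 0.3) on both was removed per library as an alternative. The limma and edgeR fits and the removal of the trend were also run on simulated reads. These had the same length trend in every dKO library and the same spread setting for every gene. The dKO libraries here differed from each other, so that run does not cover their setting, and its outcome is not given here. Other alternatives were a pseudocount of 5, no filter, equal totals, 2 groups only, the replicate block and leaving out each library.

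The members and lists were chosen with earlier results of these data known. Named were the largest changes in dKO against WT (up to 8 a direction), the smallest p-values elsewhere (up to 5), the extremes per kilobase (3 each), members at the filter, all proteins under other symbols and up to 4 genes of each other list, the cytosolic extremes, Tet2, Traf6 and Myc. Genes named outside this rule were chosen after their values were seen: those not passing, and those passing in every length fit. No 2 libraries of a group held the same values. One gene of the marker list is not reported here.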

Additional observations from a re-analysis of the deposited data

Results flagged for a closer look

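In 2 members every dKO library lay above the Tet2 KO mean and every Traf6 KO library lay below the WT mean. The Traf6 KO and WT values nonetheless overlapped in both genes. Mrpl10 had 1691, 1769 and 1988 in Traf6 KO, against 2133, 1931 and 1930 in WT. Mrpl49 had 1312, 1942 and 1527 in Traf6 KO, against 2353, 1786 and 1812 in WT. The dKO and Tet2 KO values of Mrpl49 overlapped as well. For Mrpl10, which forms the base of the ribosomal stalk, the log2 change was 0.58 in dKO against Tet2 KO and -0.14 in Traf6 KO against WT, a difference of 0.72. For Mrpl49 it was 0.74 and -0.32, a difference of 1.07. This pattern itself was not tested, and the interaction did not pass in either gene (limma, adjusted p = 0.265 in both). With the length trends removed the opposite directions remain only for Mrpl49 with the principal length. For Mrpl10, the change in dKO against Tet2 KO was then -0.10, -0.11 and -0.22 (principal, coding and longest length), and that in Traf6 KO against WT -0.25, -0.24 and -0.27. For Mrpl49 it was 0.07, -0.29 and -0.06, and in Traf6 KO against WT -0.44, -0.51 and -0.46. The 2 contrasts also cross the Xist and Ddx3y split in opposite directions, so that split and the genotype cannot be told apart here. The library labelled Traf6 KO replicate 1 had Traf6 within the WT range, which limits what its direction shows.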

How the results depend on the processing

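In dKO against WT the count of members that rose was 56 to 72 and the median change 1.04 to 2.0 under the pseudocount of 5, no filter, equal totals, edgeR, DESeq2, the replicate block, 2 groups only and each left-out library. On the recovered reads (100% of values whole) edgeR called 68 members higher and DESeq2 72. For these alternatives the share of all genes called is not given here. Equal totals moved the median of all genes to -0.34. The principal-length trend gave 19 (median 0.31), and so did the replicate block with it (19, 0.31). The longest-transcript trend gave 31 (0.49), and the coding-length trend 25 (0.59) with 1 lower. For dKO against Tet2 KO these 4 fits gave 15, 13, 19 and 15 members, with medians of 0.33, 0.33, 0.43 and 0.56. For dKO against Traf6 KO they gave 14, 13, 17 and 7, with medians of 0.22, 0.22, 0.39 and 0.42. Interaction medians were 0.32, 0.32, 0.42 and 0.42. With only the 2 compared groups, 0 members passed in dKO against Tet2 KO and 0 in dKO against Traf6 KO.

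Leaving out 1 library at a time, counts ran from 56 to 69 in dKO against WT, from 4 to 69 against Tet2 KO, from 4 to 69 against Traf6 KO and from 0 to 23 for the interaction. The change in dKO against WT, positive in all 75 members as deposited, was positive in 63 with the principal, 63 with the longest and 66 with the coding length trend removed. Among members that rose as deposited, the sign turned with the principal length in Mrpl10 (-0.24), Mrpl14 (-0.23), Mrps21 (-0.07) and Mrps27 (-0.11), none past the threshold. With the longest length it turned in Mrpl10 (-0.35), Mrpl14 (-0.23), Mrps21 (-0.06), Mrps27 (-0.25), Mrpl24 (-0.03) and Mrpl38 (-0.05), again none past it. Mrpl10 was negative with the coding length as well (-0.20). Mrpl52 changed sign with the principal-length trend removed (-0.045, also with the block), and Mrps23 with the principal (-0.14, also with the block), longest (-0.16) and coding (-0.10) length trend. Why these fits differ was not tested. Of the single-gene values 47 lost and 18 gained the threshold in some alternative.

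Same-numbered libraries did not deviate together (correlations of -0.18 to 0.19, and 3 of 12 libraries correlated best with their own number), so the replicate numbers were not taken as pairs. With the replicate block 67 members rose in dKO against WT, 61 against Tet2 KO and 66 against Traf6 KO. Low-read members such as Mrps36, Mrpl23 and Mrpl53 are those that depth limits most.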
